A study of Mus musculus with 2 samples.

Results

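The Sp genes encode a family of zinc finger transcription factors. They were taken as the 9 genes named Sp1 to Sp9, out of 21887 nuclear protein-coding genes, and all 9 were found in the RefSeq genes of GRCm38.p6 (the same assembly as mm10). The data were CUT&RUN libraries of nuclei from the PVN, the hypothalamic paraventricular nucleus, of adult wild-type (WT) mice, with neurons given as the cell type. CUT&RUN cuts and releases the DNA around a protein to which an antibody has tethered a nuclease. One library was made with an antibody to Otp (Orthopedia, a homeodomain factor of PVN neurons) and 1 with IgG, which has no target in chromatin. With 1 library per antibody there are no replicates, and no difference was tested. The number of mice behind each library is not given in the labels. The Otp peak list held 11379 regions and the IgG list held 291. Every region with its summit inside an Sp gene or within 50 kb of it was collected from both lists. The family was chosen by the high −log10 q of the Otp region at Sp1, which was already known, so these values are a description, with no test.

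Sp factors bind GC boxes, short G-rich elements in CpG-rich promoters, through zinc fingers at their carboxy-terminal end. Sp1 to Sp4 are broadly expressed activators or repressors of many promoters, and Sp4 is most abundant in the nervous system. Sp5 to Sp9 act mainly in development. Sp5 is a target of Wnt signalling, Sp6 (epiprofin) acts in teeth and skin, Sp7 (osterix) is needed for bone, and Sp8 and Sp9 act in limb outgrowth and in forebrain interneurons. The Krüppel-like factors (Klf) are their closest relatives.

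The Otp list held regions with a summit within 1 kb of an annotated start of Sp1, Sp2, Sp3 and Sp4 and none at or inside Sp5, Sp6, Sp7, Sp8 or Sp9. The promoter sequences nearest to these summits are shown first, so that their elements can be set beside the regions. The regions of Sp1, Sp2 and Sp3 overlap these windows, those of Sp4 do not, and only the Sp3 summit lies inside its window. They come from RefSeq on GRCm38.p6 and run 5′ to 3′ from 250 bases before an annotated start to 50 bases after it. Capitals mark the GC box GGGCGG, the CCAAT box (its own letters) and the homeodomain core TAAT, on either strand, and run together where these overlap. The windows are chr15:102406066-102406365 (plus strand) for Sp1, chr11:96977639-96977938 (minus) for the inner start of Sp2, chr2:72980397-72980696 (minus) for the outer start of Sp3 and chr12:118301391-118301690 (minus) for Sp4.
Sp1: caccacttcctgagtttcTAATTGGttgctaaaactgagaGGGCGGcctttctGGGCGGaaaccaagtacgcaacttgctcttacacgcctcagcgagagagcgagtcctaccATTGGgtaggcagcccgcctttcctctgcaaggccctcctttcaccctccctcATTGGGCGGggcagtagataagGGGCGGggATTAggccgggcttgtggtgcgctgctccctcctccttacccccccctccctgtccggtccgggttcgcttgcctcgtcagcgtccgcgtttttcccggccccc
Sp2 inner start: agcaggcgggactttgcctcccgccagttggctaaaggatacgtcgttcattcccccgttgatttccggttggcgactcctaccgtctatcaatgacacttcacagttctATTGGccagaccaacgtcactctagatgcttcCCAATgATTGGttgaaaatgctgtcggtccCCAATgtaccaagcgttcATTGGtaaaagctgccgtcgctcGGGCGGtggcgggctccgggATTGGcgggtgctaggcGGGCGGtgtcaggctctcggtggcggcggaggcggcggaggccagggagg
Sp3 outer start: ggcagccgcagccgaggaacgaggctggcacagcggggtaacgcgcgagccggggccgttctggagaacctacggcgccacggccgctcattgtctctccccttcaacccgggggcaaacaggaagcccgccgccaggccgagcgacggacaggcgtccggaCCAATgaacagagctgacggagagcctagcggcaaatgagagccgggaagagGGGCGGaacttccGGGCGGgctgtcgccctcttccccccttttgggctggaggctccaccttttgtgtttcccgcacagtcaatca
Sp4: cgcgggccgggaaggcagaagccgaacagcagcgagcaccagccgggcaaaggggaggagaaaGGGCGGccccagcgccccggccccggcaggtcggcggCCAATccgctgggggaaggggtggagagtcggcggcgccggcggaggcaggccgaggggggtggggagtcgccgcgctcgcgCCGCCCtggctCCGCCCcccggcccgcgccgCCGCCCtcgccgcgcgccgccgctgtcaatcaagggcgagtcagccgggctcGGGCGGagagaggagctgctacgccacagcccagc

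For contrast, a pair of windows from the same family without an Otp region nearby are shown. They are the outer start of Sp2, chr11:96982910-96983209 (minus), and the start of Sp9, chr2:73271676-73271975 (plus).
Sp2 outer start: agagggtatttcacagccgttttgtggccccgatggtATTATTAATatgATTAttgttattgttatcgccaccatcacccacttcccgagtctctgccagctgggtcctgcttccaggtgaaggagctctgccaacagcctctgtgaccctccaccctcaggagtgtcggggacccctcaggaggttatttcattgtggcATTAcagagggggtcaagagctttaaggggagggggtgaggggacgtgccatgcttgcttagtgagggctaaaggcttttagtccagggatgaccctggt
Sp9: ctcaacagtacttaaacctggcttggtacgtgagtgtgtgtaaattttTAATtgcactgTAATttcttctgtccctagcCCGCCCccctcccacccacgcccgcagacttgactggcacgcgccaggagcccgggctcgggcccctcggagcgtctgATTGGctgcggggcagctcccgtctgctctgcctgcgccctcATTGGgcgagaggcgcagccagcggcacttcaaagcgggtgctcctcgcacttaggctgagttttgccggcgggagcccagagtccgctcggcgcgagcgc

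The region at Sp1, the founding member of the family, was among the strongest and widest at a gene end. Sp1 (gene ID 20683) spans positions 102406316 to 102436404 of chromosome 15. The Otp region covered positions 102405618 to 102406294, a width of 677 bp, with its summit 374 bp upstream of the annotated start. Its deposited fold enrichment, a ratio over the background that the peak caller estimated, was 19.2 and its −log10 q was 114. The pileup at the summit was 125 tags (95% Poisson interval 104 to 149), where a tag is a read or fragment as the authors' caller counted it. Pileups were solved from the deposited fold enrichment and −log10 p, and their intervals cover counting error only. Among the 5527 Otp regions within 1 kb of a gene end, it ranked 3 by −log10 q, 11 by width and 33 by fold enrichment, and it ranked 2 by pileup among the 5477 of them with a solved pileup. Among all 11379 Otp regions it ranked 79 by −log10 q, 21 by width and 127 by fold enrichment. The median gene-end region was 167 bp wide with 15 tags and a fold enrichment of 7.59. The local background at Sp1 was 5.56 tags, 10.9 times the genome background of the library, and the fold enrichment ranked lower than the pileup at gene ends. The region covered bases 1 to 229 of the printed window, which holds all 4 of its GC boxes, its 3 CCAAT boxes and both of its TAAT cores.

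Sp2, an atypical member that is recruited to CCAAT boxes in mouse fibroblasts, had a region inside the gene and none at its ends. Sp2 (gene ID 78912) spans positions 96953332 to 96982959 of chromosome 11 and is transcribed from the minus strand, so its outer start is its upper end. The region covered positions 96977657 to 96978064 (408 bp), and its summit lay 4999 bp inside that end. It lay 272 bp upstream of an inner annotated start, at position 96977688. The pileup was 38 tags (26.9 to 52.2), the fold enrichment was 10.2 and the −log10 q was 25.3. It covered bases 1 to 282 of the inner window printed above, which holds 6 CCAAT boxes and 2 GC boxes. Among 32851 promoter windows, 0.0791% had 6 or more CCAAT boxes. The outer window holds neither element but 5 TAAT cores, and the nearest summit to its start was the same region, 4999 bp away.

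Sp3, which competes with Sp1 for GC boxes, had 1 narrow region at its outer start. Sp3 (gene ID 20687) spans positions 72936430 to 72980446 of chromosome 2 on the minus strand. The region covered positions 72980442 to 72980576 (135 bp) with the summit 99 bp upstream of the start, a pileup of 21 tags (13.0 to 32.1), a fold enrichment of 9.18 and a −log10 q of 14.3. It lay wholly in the printed window, at bases 121 to 255, across its CCAAT box and both of its GC boxes. A second annotated start of Sp3, at position 72979281, has 5 GC boxes in its window, and its nearest summit was the same region, 1264 bp upstream.

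Sp4, the family member richest in neurons, had a pair of weaker regions on either side of its start. Sp4 (gene ID 20688) spans positions 118231686 to 118301440 of chromosome 12 on the minus strand. The first region covered positions 118301274 to 118301349 (76 bp), 110 bp inside the gene, where the pileup was 15 tags (8.40 to 24.7) at a fold enrichment of 5.08. The second covered positions 118301968 to 118302267 (300 bp), 751 bp upstream, where it was 23 tags (14.6 to 34.5) at 7.58. By −log10 q they ranked 4436 and 1935 of the 5527 gene-end regions. The regions were 618 bp apart, and the printed window, 78.7% G and C with 5 GC boxes, lay in the gap between them.

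**Figure D1:**
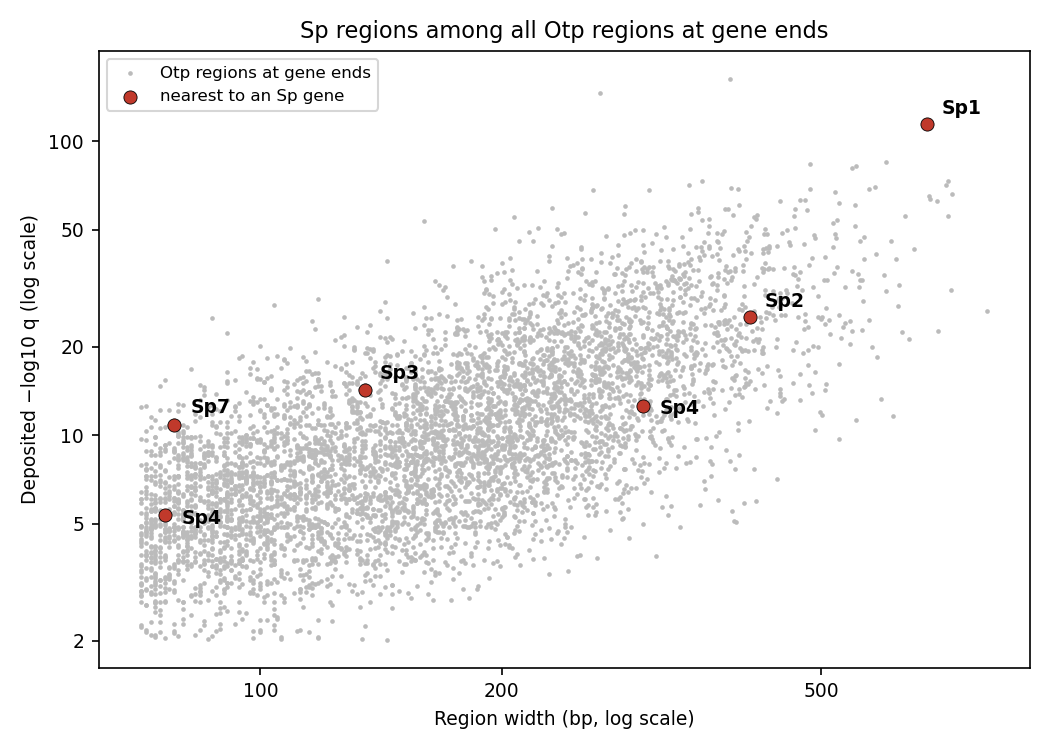
Each grey point is 1 of the 5527 Otp regions at gene ends (within 1 kb), by width in bp and by deposited −log10 q, both on log scales, and each red point is a region whose nearest gene is an Sp gene. The Sp1 region, 677 bp wide with a −log10 q of 114, stands at the upper right edge, while the other Sp regions lie within the grey cloud. The red points of Sp2 and Sp7 are not among the 5527, since their summits lie 4999 and 14733 bp from a gene end.

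Of the 5 developmental genes, none held an Otp region within 1 kb of an end or inside the gene. Sp7 (chromosome 15, positions 102356603 to 102367035) was the nearest gene to 1 region. That region was narrow (78 bp) and lay 14733 bp from its upper end, between Sp7 and Sp1, and its pileup was 13 tags (6.92 to 22.2) at a fold enrichment of 9.03. The other region in its window was the one at the Sp1 promoter, 38907 bp away.

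Sp6 (chromosome 11, positions 97013569 to 97024739) had 2 regions in its window and was the nearest gene to neither. One was the inner Sp2 region, 35609 bp away. The other, 16722 bp away, lay 92 bp from an end of Lrrc46 and 121 bp upstream of the start of Mrpl10, a mitochondrial ribosomal protein, with 14 tags (7.65 to 23.5). Sp9 (chromosome 2, positions 73271926 to 73275771) had 1 region, 36838 bp away. It lay 17 bp upstream of Cir1, a transcriptional corepressor, and 43 bp upstream of the start of Scrn3. Its fold enrichment was 7.84, and no whole pileup matched its deposited values.

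Sp5 (chromosome 2, positions 70474923 to 70477726) and Sp8 (chromosome 12, positions 118846288 to 118852578) had no region in the window. The closest to Sp5 was 114.9 kb away, with 11 tags and with Gad1, which makes the transmitter GABA, as its nearest gene. The closest to Sp8 was 367.1 kb away, also with 11 tags.

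**Figure D2:**
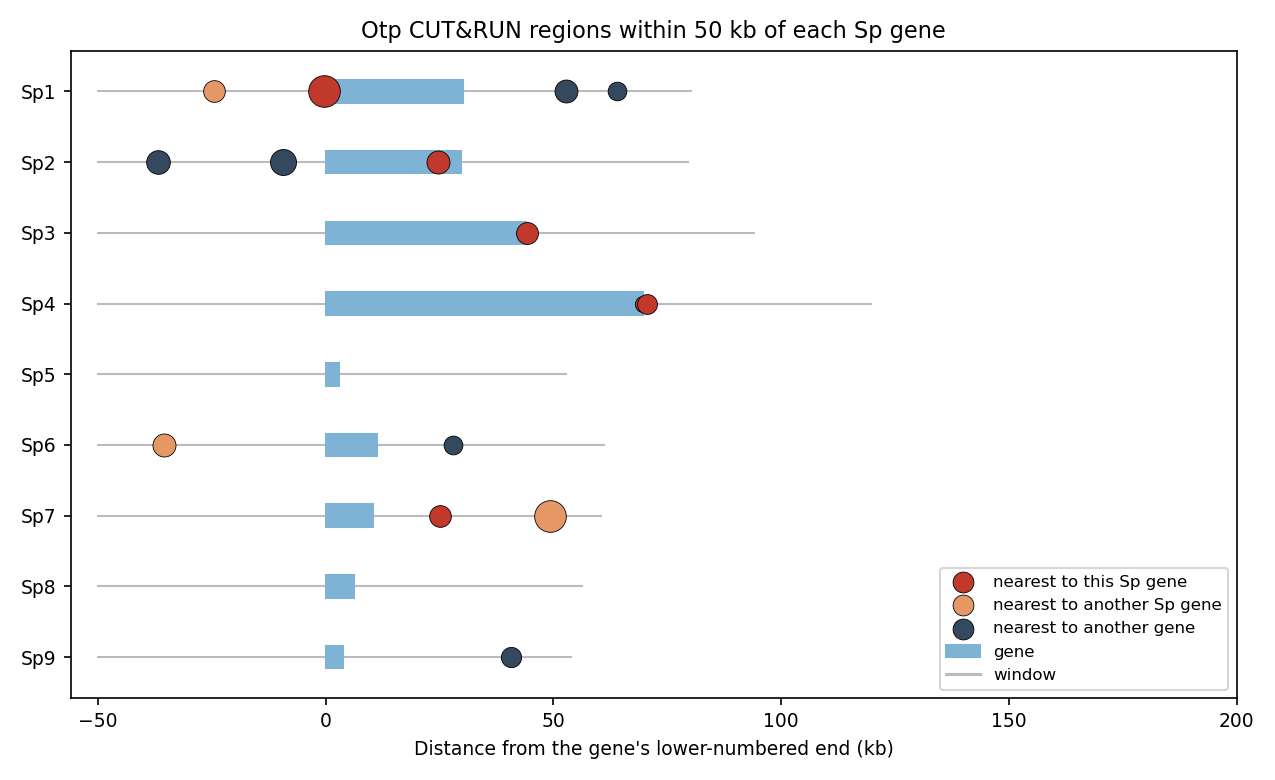
Each row is 1 Sp gene, drawn from its lower-numbered end with distance in kb on the x axis, the gene as a blue bar and its window of 50 kb on either side as a grey line. Circles are Otp regions, with area in proportion to fold enrichment and colour by nearest protein-coding gene. Red circles lie at Sp1, Sp2, Sp3 and Sp4, whereas those of Sp5 to Sp9 lie away from the gene bars.

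In all, the windows held 10 Otp regions around Sp1 to Sp4 and 5 around Sp5 to Sp9, or 12 distinct regions. Sp1 had 4, Sp2 had 3, Sp3 had 1 and Sp4 had 2, against 0 for Sp5, 2 for Sp6, 2 for Sp7, 0 for Sp8 and 1 for Sp9. Sp genes lie in pairs, 39281 bp apart for Sp1 and Sp7 and 30610 bp for Sp2 and Sp6, so 3 of the regions fell in windows of both classes. Given to the nearest Sp gene alone, Sp5 to Sp9 had 3, and within 10 kb the counts were 6 for Sp1 to Sp4 and 0 for Sp5 to Sp9. Per 100 kb of window there were 1.74 regions for Sp1 to Sp4 and 0.935 for Sp5 to Sp9, against 0.902 over all protein-coding genes.

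At least 1 region in the window was found for 4 of 4 and 3 of 5 genes, against 63.6% of all protein-coding genes. The shares are therefore close to the background for Sp5 to Sp9, and 4 genes are too few to set Sp1 to Sp4 apart from it. Within 1 kb of an end the counts were 3 of 4 and 0 of 5, against 27.2%. With the gene body counted too they were 4 of 4 and 0 of 5, against 35.3%. Within 1 kb of an annotated start they were 4 of 4 and 0 of 3 genes (Sp5, Sp8 and Sp9), against 29.5% of the 17492 protein-coding genes with a start in the promoter table. Genes are not replicates, so the classes were not tested against each other. They also differ in length, from 29.6 to 69.8 kb for Sp1 to Sp4 and from 2.80 to 11.2 kb for Sp5 to Sp9.

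Of the 12 distinct regions, 6 had an Sp gene as the nearest gene and the other 6 lay within 1 kb of an end of another gene. Cdk5rap3, in the window of Sp2, had 25 tags (16.2 to 36.9) with the summit 71 bp upstream of its start. In the window of Sp1, Prr13 had 20 tags (12.2 to 30.9), and Pcbp2, an RNA-binding protein, had 17 tags (9.90 to 27.2). The regions nearest to the 50 kb limit were at 36838 bp (Sp9) and 38907 bp (Sp7) inside it. Just outside it, Ola1 had one 57459 bp from Sp9, the Lrrc46 region lay 58502 bp from Sp2, and Espl1 had one 60428 bp from Sp7.

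The IgG list held 0 regions in any of the 9 windows, and none of the 12 Otp regions overlapped an IgG region. Over all protein-coding genes an IgG summit lay in the window for 1.72% and within 1 kb of an end for 0.379%, so 0 of 9 genes is close to that background. The closest IgG region was 592 kb from Sp9 and 9131 kb from Sp1, with the other genes in between. The Otp library had a genome background of 0.512 tags, the IgG library had one of 0.0873 tags, and the weakest IgG region with a pileup had 4 tags.

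Scaled by that background, 4 IgG tags correspond to 23.5 Otp tags. The regions at Sp1 (21.3 tags once scaled) and Sp2 (6.48) were above this limit, as was that of Cdk5rap3 (4.26). The limit takes no account of local background, and a higher one raises the tags needed for a call. In the Otp library it was 5.53 times the genome background at Sp2 and 2.77 times at Cdk5rap3. Whether such signal would have been called in the IgG library was not tested. The regions of Sp3 (3.58) and Sp4 (2.56 and 3.92) were below the limit, so a difference from IgG there was not detectable at this depth. Scaled instead by the median pileup ratio at regions that overlap between the lists (0.320), the limit is 12.5 Otp tags and all 11 regions with a pileup exceed it. That ratio was taken only where IgG also had a called region, and it gives the more lenient limit. Whether the IgG library has signal under its threshold at the Sp genes was not tested, since the files list called regions only.

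**Figure D3:**
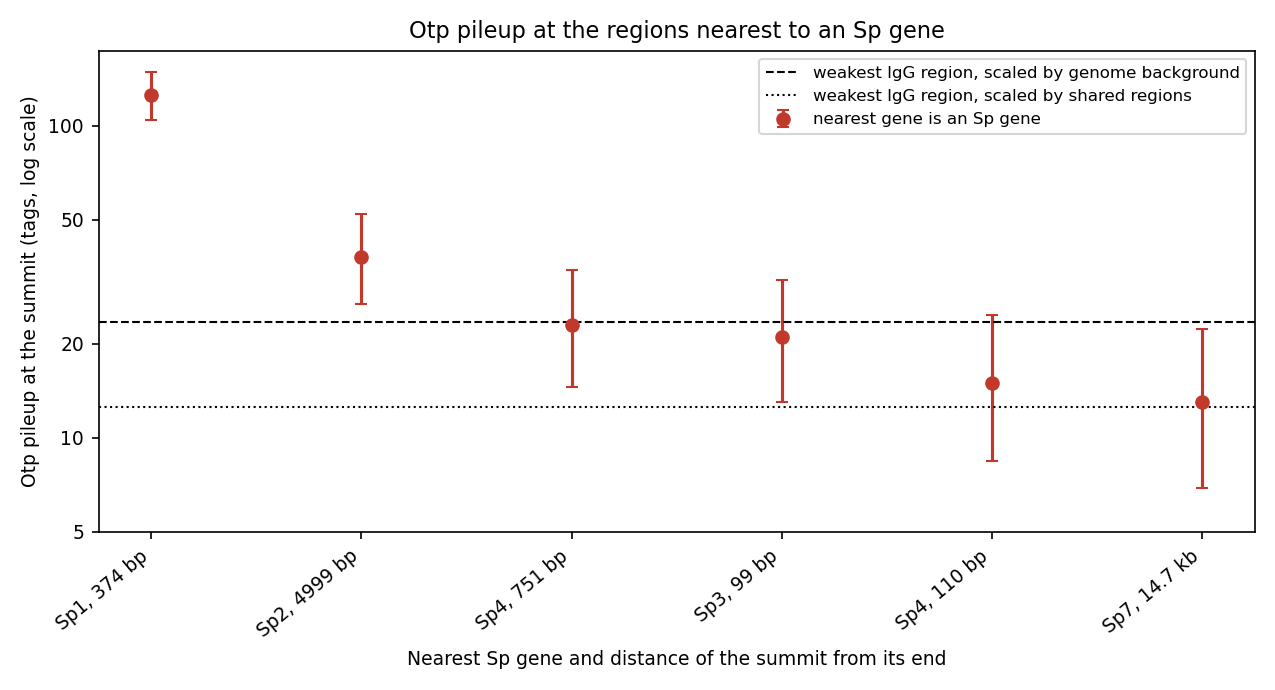
Points are Otp pileups in tags on a log scale for the 6 regions whose nearest gene is an Sp gene, with 95% Poisson intervals, labelled by that gene and the distance of the summit from its end. The dashed line at 23.5 tags and the dotted line at 12.5 tags are the pileup of the weakest IgG region under the 2 scalings. The Sp1 point stands at 125 tags and the other 5 points at 13 to 38 tags.

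The promoter windows of Sp1 to Sp4 with a region nearby were CpG-rich, but so were some without one. The promoter table held 12 windows of 7 Sp genes. The CpG count was 19 for Sp1, 25 for the inner start of Sp2, 29 for the outer start of Sp3 and 42 for Sp4. The median was 7 over all 32851 windows, but 22 over the 6835 windows with an Otp summit within 1 kb of the start. The G and C content of the 4 Sp windows was 61.7, 59.7, 66.7 and 78.7%. Its median was 52.7% over all windows and 62% over the 6835 with a summit, so Sp1 and Sp2 are close to other windows with a summit. Without a summit within 1 kb, Sp9 had 25 CpG and 63.7% G and C, an inner window of Sp8 (chromosome 12, positions 118846983 to 118847282) had 32 CpG, and the inner start of Sp3 had 42. The other Sp windows without a summit had 2 to 10 CpG.

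**Figure D4:**
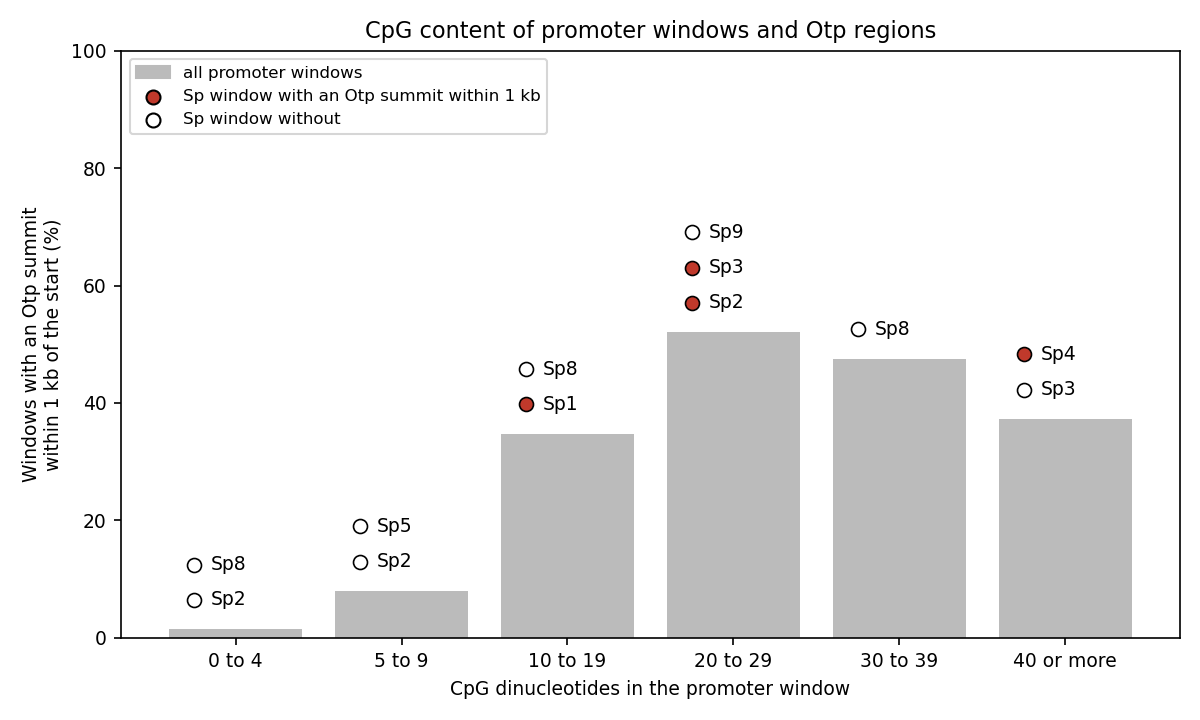
Grey bars give the percentage of all promoter windows with an Otp summit within 1 kb of the start, by number of CpG dinucleotides in the 300 bases. Circles place the 12 Sp windows in these classes, filled where a summit lies within 1 kb (their height has no meaning). Filled and open circles share the classes from 10 CpG upward other than 30 to 39, and no filled circle lies below 10.

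GC boxes numbered 4 in the Sp1 window, 2 in the inner Sp2 window, 2 in the outer Sp3 window and 5 in the Sp4 window. Without a summit within 1 kb, the inner start of Sp3 had 5, and Sp9 and the CpG-rich inner window of Sp8 had 1 each. Sp5 (chromosome 2, positions 70474673 to 70474972) and the other Sp windows without a summit had 0. At least 1 was present in 35.7% of all windows, and 4 or more in 5.49%. The TAAT core occurred 2 times in the Sp1 window and 0 times in the other 3 windows with a region. Among windows without a summit within 1 kb, it occurred 7 times in Sp5, 5 times in the outer start of Sp2 and 2 times in Sp9. The outermost and the innermost window of Sp8 held 2 each. It occurred 0 times in the inner start of Sp3 and the CpG-rich inner window of Sp8. A further Sp2 window without a summit (chromosome 11, positions 96968616 to 96968915) also had 0. At least 1 TAAT core was present in 58.0% of all windows. The longer form TAATTA, which counts as a TAAT core on each strand, was in 1 window of Sp8 and in no other of the 12, against 5.29% of all windows. CCAAT was in all 4 windows with a region. It was also in the windows of Sp5 and Sp9 and in the outermost and the CpG-rich inner windows of Sp8. None of these has a summit within 1 kb. CCAAT was present in 37.4% of all windows. A match describes these letters only and does not show a bound site.

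Relatives and partners of the family were counted in the same way, from lists made up of textbook relatives, partners and targets. Of 17 Klf genes, 10 had an Otp summit within 1 kb of an end, against 27.2% of all protein-coding genes. The strongest was at Klf7, a Klf factor of developing neurons, where 54 tags (40.6 to 70.5) stood at a fold enrichment of 16.3, the summit 346 bp upstream of an annotated start. Klf6 followed with 33 tags (22.7 to 46.3) at 13.6-fold enrichment, and Klf13 with 26 tags (17.0 to 38.1) and 10.2. Klf5, Klf10 (induced by TGF-beta) and Klf4 (a pluripotency factor) had fold enrichments of 8.26, 7.96 and 7.69.

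Of 16 partners of Sp1 and factors of the same promoters, 12 had a region at an end, against the same 27.2%. Nfya, a subunit of the factor that binds CCAAT boxes, had 49 tags (36.3 to 64.8) and a fold enrichment of 11.6, but that summit lay nearer to Oard1, 28 bp from its end. The Mediator subunit Med26 had 27 tags (17.8 to 39.3) and the TFIID subunit Taf7 had 17 tags (9.90 to 27.2), with fold enrichments of 11.1 and 11.0. Atf7ip, a chromatin cofactor that binds Sp1, had a fold enrichment of 9.67, the sterol regulator Srebf2 had 9.49 and the histone deacetylase Hdac1 had 8.36.

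Of 10 textbook target genes of GC boxes, 5 had a region at an end, against 27.2% of all protein-coding genes. Odc1 of polyamine synthesis had 17 tags (9.90 to 27.2) and a fold enrichment of 8.15, and Fasn of fatty acid synthesis had 16 tags (9.15 to 26.0) and 6.55. Tk1, Vegfa, Cdkn1a, Myc and Fmr1 had none. No gene of the 3 lists had an IgG region at an end, against 0.379% of all protein-coding genes, so that absence is close to the background. Restricted to regions whose −log10 q was 10 or more, the counts were 5 of 17, 7 of 16 and 3 of 10, while Sp1, Sp3 and Sp4 kept a region at an end. At that threshold 13.4% of all protein-coding genes had one.

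**Figure D5:**
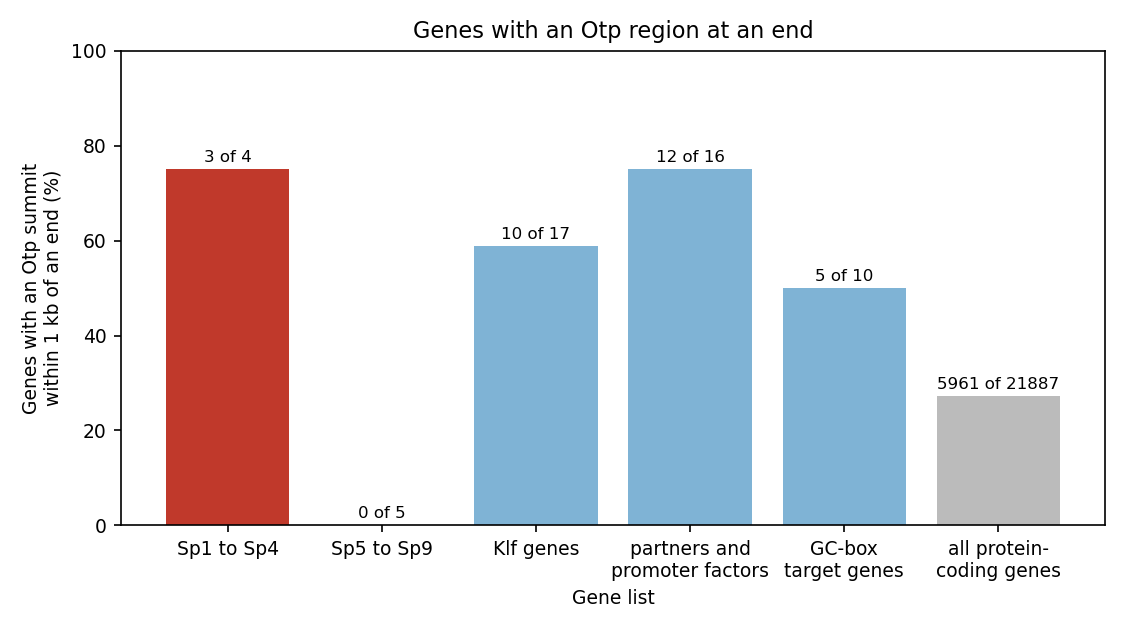
Bars give the percentage of genes in each list with an Otp summit within 1 kb of either end, with the counts above them. Sp1 to Sp4 stand at 3 of 4 and Sp5 to Sp9 at 0 of 5, against 5961 of 21887 protein-coding genes.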

How the data were processed

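Each library has 1 peak list from the authors in the narrowPeak layout, on mm10. The submitters' processing notes name MACS2, Bowtie2, SAMtools, Picard and Trimmomatic. Their versions and settings, what was done with duplicates, and whether a control library entered peak calling were not given in the sources used here. Each region's deposited fold enrichment (a ratio), −log10 p and −log10 q come from the authors' caller and were used to describe and rank regions within a list. Total depth is unknown, because the lists hold no read numbers, and precision was taken from pileups.

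A pileup was accepted where a whole number, with the background implied by the fold enrichment, met the −log10 p to within 0.001 while the next best missed by over 0.005. This solved 11182 Otp and 262 IgG regions. It was checked on simulated regions, whose pileups and backgrounds did not go as low as those of the weakest IgG regions. The genome background is the lowest value found in 3 regions or more. The scaling by overlapping regions used 233 overlapping pairs with both pileups.

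Distances run from summits to gene ends of the RefSeq table, which gives no strand. Strand and annotated starts come from a RefSeq promoter table that holds part of the genes. Lists were overlapped by at least 1 bp with bedtools 2.31.1, and mitochondrial genes were left out. Calculations used Python 3.11.15, numpy 2.4.6, pandas 2.3.3 and scipy 1.17.1, and figures matplotlib 3.10.9. Groups follow the antibody label.

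The Sp genes, the lists and the alternatives (stricter thresholds, other windows and other overlap rules) were chosen with earlier results of these data known. Named genes are the 9 Sp genes, genes with an end within 1 kb of a summit in an Sp window, and up to 6 genes per list by fold enrichment. A few genes under this rule are not reported here. Espl1, Ola1, Oard1 and Gad1, and the list genes without a region, were named after their values were seen. If duplicate reads were kept, pileups count PCR copies too.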

Additional observations from a re-analysis of the deposited data

How the results depend on the processing

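Of 41 values recomputed under alternatives, 32 stayed within 1.5 times the reported count and 9 did not. Around Sp1 to Sp4 the count of regions was 6 within 10 kb. It ranged from 8 to 15 under the other settings. Around Sp5 to Sp9 it was 0 within 10 kb, 10 within 100 kb, 3 with the −log10 q threshold raised to 10 and 3 when each region went to the nearest Sp gene alone. With the raised threshold, 5 of 17 Klf genes, 7 of 16 partners and 3 of 10 target genes had a region at an end. The share of all protein-coding genes was then 13.4%. Within 500 bp of an end, 3 of 10 target genes had one, against 25.1% of all protein-coding genes, so that count is close to the background. The counts of Sp1 to Sp4 with a region at an end were 3 or 4 and those of Sp5 to Sp9 were 0 under every setting run. No setting could raise the 0, since the closest region to any of Sp5 to Sp9 lay 14733 bp away. The 6 regions nearest to an Sp gene were also 6 with all annotated genes as candidates. The overlap with IgG was 0 under the reciprocal 50% rule and with IgG summits within 500 bp. Neither rule could give another count, since the closest IgG region lay 592 kb from an Sp gene. The 32 values that stayed include these fixed counts of 0. No paired analysis was possible because there is a single library per antibody, which also leaves none to omit. Unknown depth and the low IgG background limit any comparison at regions of few tags.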

Other observations

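The elements marked in the Sp windows were counted over all 32851 promoter windows as a description. Windows of 1 gene can overlap, and the counts move with base composition. An Otp summit lay within 1 kb of the start in 20.8% of windows. The share was 9.95% with no GC box, 34.2% with 1, 42.7% with 2, 48.1% with 4 and 50.3% with 5 or more. For CCAAT boxes it was 17.0% with none, 20.9% with 1, 51.3% with 3, 66.2% with 4 and 76.4% of the 89 windows with 5 or more, a class that holds the inner start of Sp2.

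By CpG count the share was 1.47% with 0 to 4, 34.8% with 10 to 19, 52.1% with 20 to 29 and 37.3% with 40 or more. For the TAAT core the share ran the other way, 29.4% with none and 4.08% of windows with 5 or more. The windows of Sp5 (7 cores) and of the outer start of Sp2 (5 cores) are in this last class, and neither has a summit within 1 kb.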
